A study of Mus musculus with 7 samples.

Results

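The 7 genes of the neutrophil chemokine and granulocyte colony-stimulating factor (G-CSF) axis examined in mouse pancreatic tumors were the chemokine ligands *Cxcl1*, *Cxcl2*, *Cxcl3* and *Cxcl5*, their shared receptor *Cxcr2*, the cytokine *Csf3* (G-CSF) and its receptor *Csf3r*. They were chosen by name, and all 7 have a row among the 38026 genes of the expression table. RNA was sequenced from 7 subcutaneous (s/c) tumors of C57BL/6 mice, taken 2 weeks after inoculation of pancreatic ductal adenocarcinoma (PDA) cells and with no treatment. The cells were of the line 1242 KPC, which came from a tumor of a mouse model that uses Pdx1-Cre, a driver active in the pancreas. Before inoculation they were transduced with Cas9 and either a scrambled guide RNA (sgScramble, replicates 1 to 4) or one directed to *Krt19* (sgKRT19, replicates 5, 6 and 8), so both groups carry Cas9, and the editing is in the cancer cells while the host is unedited. The labels do not give the age of the mice, which *Krt19* guide was used, or whether the injected cells were polyclonal or 1 clone. The paper's methods state that C57BL/6 mice were bought at 6 weeks and housed for 2 weeks before each experiment. Cancer cells of 1 line formed all 7 tumors. Nothing says which tumors shared a day or a preparation, so p-values measure the spread between these samples.

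CXCL1, CXCL2, CXCL3 and CXCL5 are CXC chemokines with the ELR motif, and they draw neutrophils into tissue through the receptor CXCR2. Epithelial cells, fibroblasts and macrophages make them after stimulation by cytokines such as IL-1, TNF and IL-17, in large part through NF-kB, and their mRNAs are short-lived. G-CSF acts upstream, on the bone marrow, where its receptor drives the production and release of neutrophils. CXCR2 and the G-CSF receptor are both carried mainly by cells of the neutrophil lineage, and both have been studied in pancreatic cancer for their part in the recruitment of myeloid cells. The comparison describes how these ligands and receptors differ between *Krt19*-edited and control tumors.

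The 4 ligand genes lie on the plus strand of chromosome 5 (build GRCm38, GENCODE M21), each with 4 exons. *Cxcl5* (ENSMUSG00000029371.7) spans chr5:90759360-90761624, *Cxcl3* (ENSMUSG00000029379.10) chr5:90786103-90789600, *Cxcl1* (ENSMUSG00000029380.11) chr5:90891241-90893115 and *Cxcl2* (ENSMUSG00000058427.10) chr5:90903871-90905938. They share an interval of 146.6 kb with the related chemokine genes *Ppbp*, *Pf4* and *Cxcl15* and with 2 other genes. *Cxcr2* (ENSMUSG00000026180.8) lies at chr1:74153989-74161246, *Csf3* (ENSMUSG00000038067.2) at chr11:98701263-98703629 and *Csf3r* (ENSMUSG00000028859.14) at chr4:126024550-126044440, all on the plus strand. No exon of the 7 genes overlaps an exon of another gene. *Cxcl2* and *Cxcl3* are close copies: 126 of the 50-base stretches in *Cxcl2* transcripts, 5.84% of its total of 2159, also occur in those of *Cxcl3*. Stretches shared with any other gene made up 10.8% of those of *Csf3r*, 6.68% of *Cxcr2*, 4.29% of *Cxcl3* and 0.693% of *Cxcl5*, and *Cxcl1* and *Csf3* had none. Reads from such stretches could have been assigned to either gene, so the values of the 5 genes that have them carry that uncertainty.

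Sequence upstream of *Cxcl1*, *Cxcl2* and *Cxcl3* is shown because the promoters of these 3 related neighbors hold the same pair of elements. Each sequence holds the 110 bases before the RefSeq start site (GRCm38.p6, plus strand, 5′ to 3′), and capitals mark the match to the NF-kB consensus and the TATA-like element ATAAAA.
*Cxcl1*, chr5:90891135-90891244: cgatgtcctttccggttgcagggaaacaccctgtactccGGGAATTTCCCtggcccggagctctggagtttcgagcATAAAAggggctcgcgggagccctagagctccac
*Cxcl2*, chr5:90903789-90903898: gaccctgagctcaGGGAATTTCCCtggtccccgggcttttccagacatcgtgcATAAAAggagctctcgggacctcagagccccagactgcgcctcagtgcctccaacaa
*Cxcl3*, chr5:90785991-90786100: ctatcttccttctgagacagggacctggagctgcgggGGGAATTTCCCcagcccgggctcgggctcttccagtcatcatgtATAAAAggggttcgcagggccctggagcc

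All 3 promoters carried the identical letters GGGAATTTCCC, which hold 2 overlapping matches to the consensus, 1 beginning at each of the first 2 letters. Counted from the GENCODE gene start, the first letter lay at -67 in *Cxcl1*, -69 in *Cxcl2* and -75 in *Cxcl3*, and ATAAAA began at -30, -29 and -31. Both strands of a 300-base window around the start site were searched, and of 32851 such windows of mouse genes 4.51% held the NF-kB consensus and 18.5% held ATAAAA. The windows of *Cxcr2* and *Csf3r* held neither. Matches to C/EBP (TTNNGCAA, in 10.8% of windows), AP-1 (TGANTCA, in 7.81%) and STAT (TTCNNNGAA, in 8.30%) were found in none of the 5 windows searched, which says only that these letters are not there. A run of 13 bases, ctccagactccag, was also shared by all 3 ligand windows, beginning 34, 14 and 38 bases after the RefSeq start of *Cxcl1*, *Cxcl2* and *Cxcl3*. *Cxcl5* and *Csf3* have no entry in the promoter table.

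The values are normalized read counts: the reads of a gene, scaled by a size factor that the authors set for each library. Libraries held 40781199 to 44972100 reads, and 3 reads, taken as the floor of detection, equal a value of 2.74 to 3.47. The floor covers counting error only. *Krt19* itself was at 23053 ± 4392 (SD, n = 4) in sgScramble tumors and 2012 ± 434 (SD, n = 3) in sgKRT19 tumors, and every library matched its label. Skeletal muscle transcripts set the groups apart and sgScramble replicate 3 from its own group: the summed value of 8 muscle markers was 51.4 to 2045 in sgScramble tumors, highest in replicate 3, and 17843 to 25226 in sgKRT19 tumors. All results are given for bulk tumors, in which fewer cells of a type and less RNA per cell cannot be told apart.

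*Cxcl3*, *Cxcl5*, *Cxcr2* and *Csf3r* were higher in sgKRT19 tumors, by 1.75-fold to 2.50-fold, whereas *Cxcl1* and *Cxcl2* did not pass the test and *Csf3* was near the floor of detection. The test was limma on log2(value + 1) over all genes that reached a value of 10 in 3 or more libraries, with Benjamini-Hochberg adjustment at 0.05. Of the 7 genes, 6 passed this filter, and 4 of those 6 were called, all higher in sgKRT19. For comparison, 7240 of 21322 genes tested were called (34.0%), 17.9% as higher and 16.0% as lower. The groups did not overlap for 2 of the 6, *Cxcl5* and *Cxcr2*, and they did not overlap for 41.1% of all genes tested, so the count of 2 is read no further. Log2 fold changes are on the log2(value + 1) scale, which understates changes of low genes. Scaling by library size alone moved the median log2 fold change of all genes from 0.0072 to -0.21 and the calls from 3820 higher and 3420 lower to 2187 and 5705, and under it the 6 genes kept the sign of their changes.

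**Figure D1:**
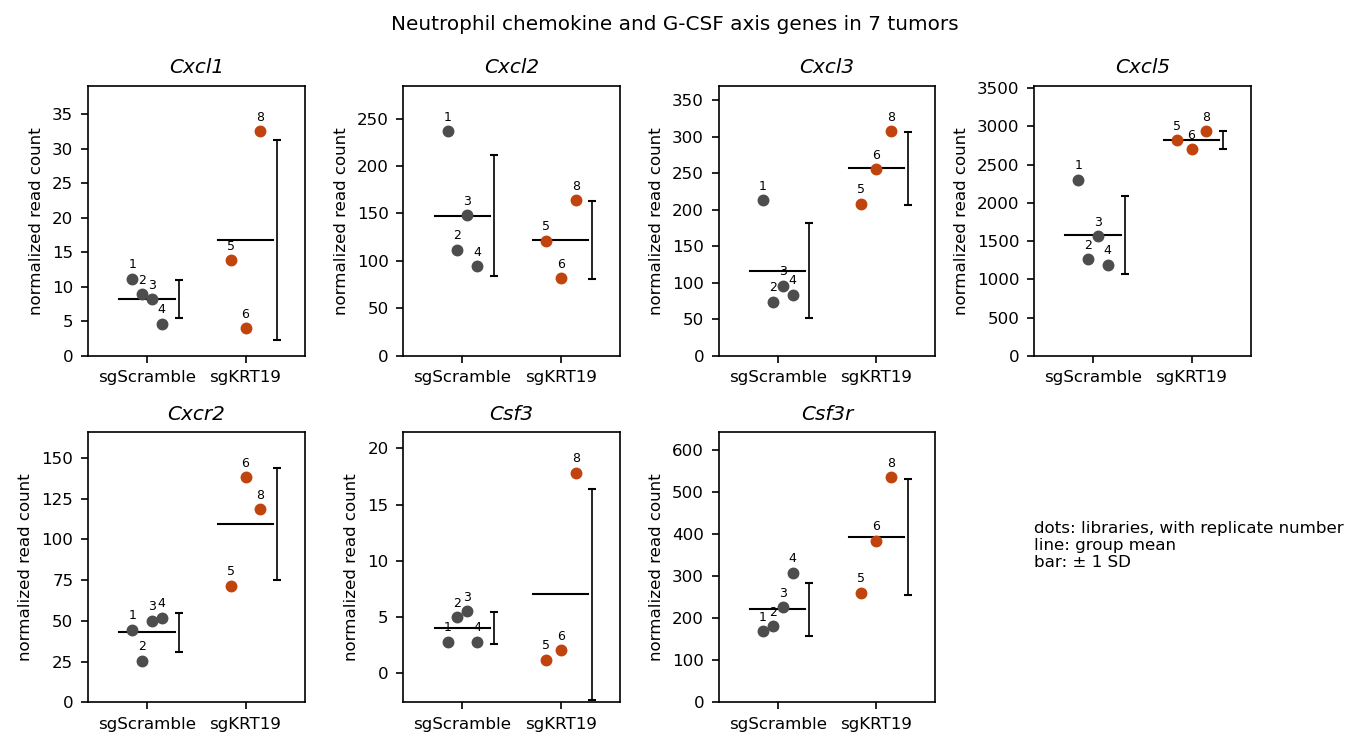
Normalized read count (y axis, linear, a separate scale in each panel) of the 7 genes in each library of the sgScramble and sgKRT19 groups (x axis). Dots are libraries with their replicate number, the line is the group mean and the bar is ± 1 SD (n = 4 and n = 3). All sgKRT19 dots lie above all sgScramble dots for *Cxcl5* and *Cxcr2*, and sgScramble replicate 1 is the highest control for all 4 ligands.

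*Cxcl5*, the most abundant ligand, encodes a chemokine made mainly by epithelial cells. Its normalized read counts were 2304, 1263, 1564 and 1195 in sgScramble replicates 1 to 4 and 2821, 2699 and 2940 in sgKRT19 replicates 5, 6 and 8. Every sgKRT19 tumor lay above every sgScramble tumor, and the edited tumors were close to each other while the controls spread widely, with replicate 1 the nearest to the edited group. The means were 1581 ± 508 (SD, n = 4) and 2820 ± 121 (SD, n = 3), and the log2 fold change was 0.88, with an SE of 0.20 and an adjusted p of 0.00833 by limma. It stayed called without any 1 library, between 0.77 and 1.08.

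*Cxcl3* encodes a ligand of CXCR2 made by macrophages and epithelial cells. Its values were 213, 74.1, 95.9 and 83.5 in sgScramble tumors and 208, 255 and 308 in sgKRT19 tumors. The other controls lay well below the edited tumors, but control replicate 1 lay just above edited replicate 5, so the groups overlapped. The means were 117 ± 64.7 (SD, n = 4) and 257 ± 49.8 (SD, n = 3), and the log2 fold change was 1.25, with an SE of 0.33 and an adjusted p of 0.0165 by limma. The call was lost without sgKRT19 replicate 8, where the log2 fold change was 1.11 and the adjusted p 0.0620. Without sgScramble replicate 1 it was 1.58, with an adjusted p of 0.000894.

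*Cxcl2* encodes MIP-2, a ligand released early by macrophages and neutrophils. Its values were 237, 112, 148 and 94.6 in sgScramble tumors and 121, 82.0 and 164 in sgKRT19 tumors. The groups were intermixed, with the highest value in a control and the lowest in an edited tumor. The log2 fold change was -0.24 with an SE of 0.33 (limma, adjusted p = 0.598), and it was 0.021 without sgScramble replicate 1 and 0.023 without sgKRT19 replicate 6, so not even its sign was settled. The SE of 0.33 leaves room for changes of moderate size in either direction.

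*Cxcl1* encodes KC, the mouse chemokine often used as the counterpart of human IL-8, and it was scarce. Its values were 11.1, 8.89, 8.22 and 4.64 in sgScramble tumors, from 12, 9, 9 and 5 reads. They were 13.9, 4.0 and 32.6 in sgKRT19 tumors, from 12, 4 and 31 reads. The edited tumors held both the lowest and the highest value. The log2 fold change of 0.61, with an SE of 0.59, did not pass the test (limma, adjusted p = 0.441). Counts this low and edited tumors this far apart leave the difference poorly determined. Without sgKRT19 replicate 6 it was 1.33, with an adjusted p of 0.0658.

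*Cxcr2* encodes the receptor that all 4 ligands share. Its values were 44.6, 25.7, 50.2 and 51.9 in sgScramble tumors and 71.7, 138 and 119 in sgKRT19 tumors. All 3 edited tumors lay above all controls, with replicate 5 the nearest to them. The means were 43.1 ± 12.0 (SD, n = 4) and 109 ± 34.1 (SD, n = 3), and the log2 fold change was 1.32, with an SE of 0.31 and an adjusted p of 0.0100 by limma. It stayed called without any 1 library, between 1.10 and 1.60.

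*Csf3* encodes G-CSF, and it was barely detected. Reads numbered 3, 5, 6 and 3 in sgScramble tumors and 1, 2 and 17 in sgKRT19 tumors, so 4 of the 7 libraries lay at or under the floor of 3 reads. Values were 2.79, 4.94, 5.48 and 2.78 against 1.16, 2.00 and 17.9. Only sgKRT19 replicate 8, also the tumor with the most *Cxcl1*, stood clearly above the floor. *Csf3* did not pass the filter on low values and was not tested. With no filter its log2 fold change was 0.033 (limma, adjusted p = 0.975).

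*Csf3r* encodes the G-CSF receptor. Its values were 170, 182, 227 and 309 in sgScramble tumors and 261, 385 and 536 in sgKRT19 tumors. The groups overlapped, since control replicate 4 lay above edited replicate 5. The means were 222 ± 62.9 (SD, n = 4) and 394 ± 137 (SD, n = 3), and the log2 fold change was 0.81, with an SE of 0.27 and an adjusted p of 0.0407 by limma. The call was lost without sgScramble replicate 1 (log2 fold change 0.69), 2 (0.72) or 3 (0.83), without sgKRT19 replicate 6 (0.79) or 8 (0.55), and with library size as the only scaling (0.59, adjusted p = 0.147).

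Levels were compared between genes per kb of the principal transcript, as normalized reads per kb. *Cxcl5* stood above all others in every library, at 1004 ± 323 (SD) in the 4 controls and 1791 ± 76.5 (SD) in the 3 edited tumors. In sgScramble tumors *Cxcl2* (133 ± 57.2), *Cxcl3* (115 ± 63.7) and *Csf3r* (63.7 ± 18.1) followed, and neighbors in this part of the order overlapped. In sgKRT19 tumors the order was *Cxcl3* (253 ± 49.0), *Csf3r* (113 ± 39.5) and *Cxcl2* (110 ± 36.9), with *Cxcl3* above both of the others in all 3 libraries and the last pair overlapping. *Cxcr2* (14.2 ± 3.95 and 35.9 ± 11.2), *Cxcl1* (8.63 ± 2.83 and 17.6 ± 15.2) and *Csf3* (2.83 ± 1.0 and 4.96 ± 6.66) came last in both groups. The ranges of *Cxcr2* and *Cxcl1* overlapped in both groups, and those of *Cxcl1* and *Csf3* overlapped in sgKRT19 tumors but not in sgScramble tumors.

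**Figure D2:**
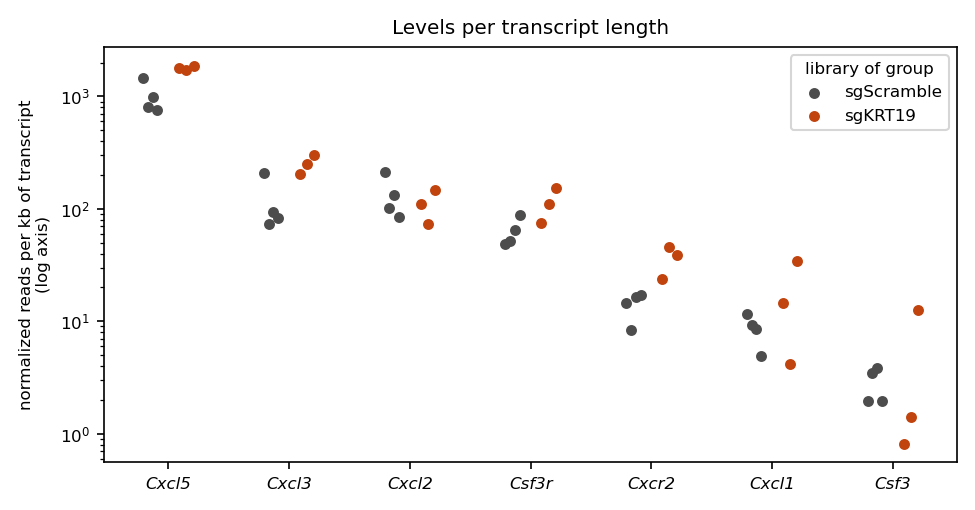
Level of the 7 genes as normalized reads per kb of the principal transcript (y axis, log scale), genes ordered by their mean over the 7 libraries (x axis). Each dot is 1 library, in grey for sgScramble (n = 4) and in red for sgKRT19 (n = 3), and *Cxcl5* lies above every other gene in both groups.

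*Cxcl5* made up 77.1% to 81.5% of the summed level of the 4 ligands per kb in sgScramble tumors and 79.4% to 84.5% in sgKRT19 tumors. The share of *Cxcl2* was 11.3%, 10.2%, 10.9% and 9.17% in sgScramble tumors and 5.16%, 3.62% and 6.28% in sgKRT19 tumors, so it was lower in every edited tumor. *Cxcl3* held 7.41% to 11% and 9.66% to 12.9%, and *Cxcl1* at most 1.45% in any library. These shares were examined after the values had been seen.

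The pair *Cxcl2* and *Cxcl3* was therefore also compared within each library, a comparison added after the values were seen. The log2(value + 1) of *Cxcl2* minus that of *Cxcl3* was 0.15, 0.58, 0.62 and 0.18 in sgScramble tumors and -0.77, -1.63 and -0.91 in sgKRT19 tumors. *Cxcl2* was the higher of the pair in all 4 controls and the lower in all 3 edited tumors. The group means differed by -1.49, and since the pair was picked for this difference it is given with no test.

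The other genes of the chromosome 5 cluster were examined beside the ligands. *Cxcl15* encodes lungkine, an ELR chemokine known from lung epithelium, and it fell, with a mean of 117 ± 17.8 (SD, n = 4) in controls and 26.9 ± 15.2 (SD, n = 3) in edited tumors (log2 fold change -2.20, limma adjusted p = 0.000977). It starts 35.2 kb from the start of *Cxcl5* and is the next coding gene after *Cxcl3*, which starts at 26.7 kb. The platelet chemokine genes *Ppbp* (log2 fold change -0.08, adjusted p = 0.888) and *Pf4* (log2 fold change 0.26), at 9.16 and 13.1 kb, were not called. *Cxcl1* and *Cxcl2* start at 132 and 145 kb. Among the 7 coding genes of the interval, 2 were thus called higher, 1 lower and 4 not at all. Over all genes tested 17.9% were called higher and 16.0% lower, so these counts are read no further. *Cxcr1*, the second receptor for some ELR chemokines, was at or under 3 reads in every library, and *Ackr1*, a chemokine-scavenging receptor of venules, was not called (log2 fold change 0.71, adjusted p = 0.364) except without sgKRT19 replicate 5 (1.50, adjusted p = 0.0288). Of these 4 other ELR chemokine and receptor genes, 3 were tested, with a median log2 fold change of -0.08 against 0.0072 over all genes tested.

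**Figure D3:**
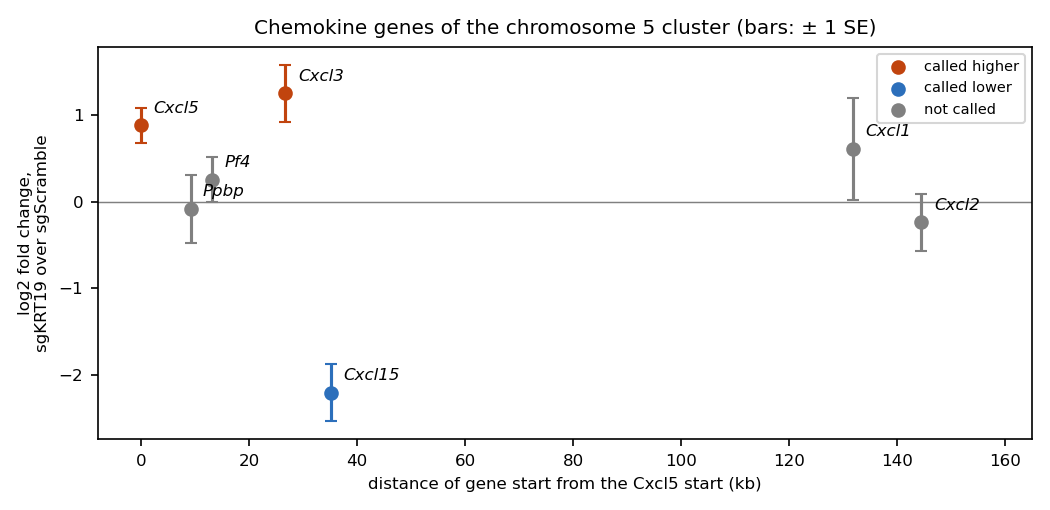
Log2 fold change, sgKRT19 over sgScramble (y axis), of the 7 coding genes of the chromosome 5 chemokine cluster against the distance of each gene start from that of *Cxcl5* (x axis, kb). Dots are limma estimates with bars of ± 1 SE, in red for genes called higher, blue for lower and grey for not called, and *Cxcl15* lies at -2.20 beside *Cxcl3* at 1.25.

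Cytokines that induce these ligands, and receptors for them, were examined next. Of 12 tested genes for IL-1 and TNF with their receptors, IL-6 and the IL-17 receptor, 6 rose and 1 fell. The median log2 fold change was 0.42. The IL-17 gene *Il17f*, at 0 to 3.71, did not pass the filter. Those that rose were *Il1b*, *Tnf* and the receptor genes *Il1r2*, *Tnfrsf1b* (0.52), *Il17rc* (0.47) and *Tnfrsf1a* (0.37). Beside these and the list counts below, 17.9% of all genes tested were called higher and 16.0% lower. *Il1b*, a main inducer of *Cxcl1* and *Cxcl2*, rose: its mean was 345 ± 82.7 (SD, n = 4) in controls and 593 ± 158 (SD, n = 3) in edited tumors (log2 fold change 0.78, limma adjusted p = 0.0246). *Tnf* rose from 52.9 to 121 (log2 fold change 1.19), and *Il1r2*, the decoy receptor for IL-1 that neutrophils carry, rose from 138 to 378 (log2 fold change 1.46). *Il1rap*, the signaling partner of the IL-1 receptor, fell from 207 to 130 (log2 fold change -0.66). Scaling by library size alone left 2 of the 12 higher and 3 lower, and *Il1b* was then at 0.57 (adjusted p = 0.0590). *Il1b* was also lost without sgScramble replicate 2 (0.61) or sgKRT19 replicate 5 (0.58), and *Il1rap* without sgScramble replicate 4 (-0.51) or sgKRT19 replicate 6 (-0.67) or 8 (-0.55). *Il1a* (0.59, adjusted p = 0.157) and *Il6* (0.32, adjusted p = 0.570) did not pass. *Il17a*, *Il36a* and *Il36g* were not analysed here.

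Regulators of chemokine transcription and mRNA decay moved in both directions. Of 16 tested, 5 rose and 3 fell, with a median log2 fold change of -0.083. *Zfp36*, which encodes tristetraprolin and promotes the decay of *Cxcl1* and *Cxcl2* mRNA, rose by 0.74 on the log2 scale, as did *Cebpb* (0.52), a C/EBP factor, and *Traf3ip2* (0.49), the adaptor of the IL-17 receptor. *Nfkb1*, the p50 precursor of NF-kB, fell by 0.53 on the log2 scale, *Zfp36l1*, a relative of *Zfp36*, by 0.52 and *Nfkbiz*, a co-factor for NF-kB, by 0.43. The direction of the list followed the scaling, since library size alone left 1 of the 16 higher and 6 lower, with *Cebpb* at 0.30 and *Traf3ip2* at 0.28 no longer called. The list held 4 calls without sgScramble replicate 2 or sgKRT19 replicate 5 or 8, and 5 without sgScramble replicate 4. *Zfp36* was called in every alternative, whereas *Cebpb* (0.37 without sgKRT19 replicate 5), *Nfkb1* (-0.40 without sgKRT19 replicate 5), *Zfp36l1* (-0.43 without sgScramble replicate 2) and *Nfkbiz* (-0.34 without sgScramble replicate 2) each lost their call in at least 1 of them.

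Of the other colony-stimulating factors and their receptors, 1 of 10 tested was called. *Csf2*, which encodes GM-CSF, rose, with means of 30.0 ± 14.7 (SD, n = 4) and 73.6 ± 11.2 (SD, n = 3) (log2 fold change 1.38, limma adjusted p = 0.0168). The call was lost without sgKRT19 replicate 6 (1.29, adjusted p = 0.0548) or 8 (1.35, adjusted p = 0.0512). The list had 2 calls without sgScramble replicate 4. The median log2 fold change of the 10 was 0.21, and *Il3* was at or under 3 reads in every library.

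Genes for signaling from the G-CSF receptor and for granulocyte formation also moved both ways, with 6 of 15 tested higher and 2 lower and a median log2 fold change of 0.11. *Gfi1*, a transcription factor of neutrophil differentiation, rose from 18.8 to 47.9 (log2 fold change 1.30). The kinase gene *Lyn* (log2 fold change 0.83), which many leukocytes express, rose too. *Gfi1* was not called without sgKRT19 replicate 6 (1.15) or 8 (1.14), and without replicate 6 the list had 5 calls. *Stat5a* fell by 0.62 and *Stat5b* by 0.54 on the log2 scale. Library size alone left 3 of the 15 higher and 4 lower. *Stat3*, the main STAT below the G-CSF receptor, had a log2 fold change of -0.26 (adjusted p = 0.0613; -0.48, adjusted p = 0.0117, with library size alone) and *Socs3*, its feedback inhibitor, one of 0.11 (adjusted p = 0.590).

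The receptors were set beside markers of the cells that carry them. Of 22 neutrophil markers, 15 were tested and 10 rose, with a median log2 fold change of 1.29. Their summed value was 1116 to 2466 in sgScramble tumors and 6637 to 6859 in sgKRT19 tumors. *Ltf*, for lactoferrin, a granule protein that glandular epithelium also makes, rose most, with means of 212 ± 188 (SD, n = 4) in controls and 3530 ± 201 (SD, n = 3) in edited tumors, and without it the sum was 1024 to 2190 and 3044 to 3336. *Fpr2*, a formyl peptide receptor, and *Hdc*, histidine decarboxylase, rose by 2.24 and 1.57 on the log2 scale. The calprotectin genes *S100a8* (log2 fold change 1.50) and *S100a9* (1.44), which monocytes also express, rose as well. *Clec4e* (1.32), *Retnlg* (1.31) and *Asprv1* (1.01) were also called higher, whereas *Trem1* (0.38), *Mmp8* (0.29) and *Fpr1* (-0.063) were not called. *Retnlg* passed the filter only through the edited tumors, being under 10 in every control but replicate 1. Its call is read no further, although it is counted among the 10 that rose, in the median and among the 15 tested. Several other markers of the list were low in all 7 libraries. *Ly6g* was at 0.913 to 5.78, *Ngp* at 0 to 9.25, *Camp* at 0 to 5.78, *Mpo* at 0 to 3.95 and *Elane* at 0 to 1.16.

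**Figure D4:**
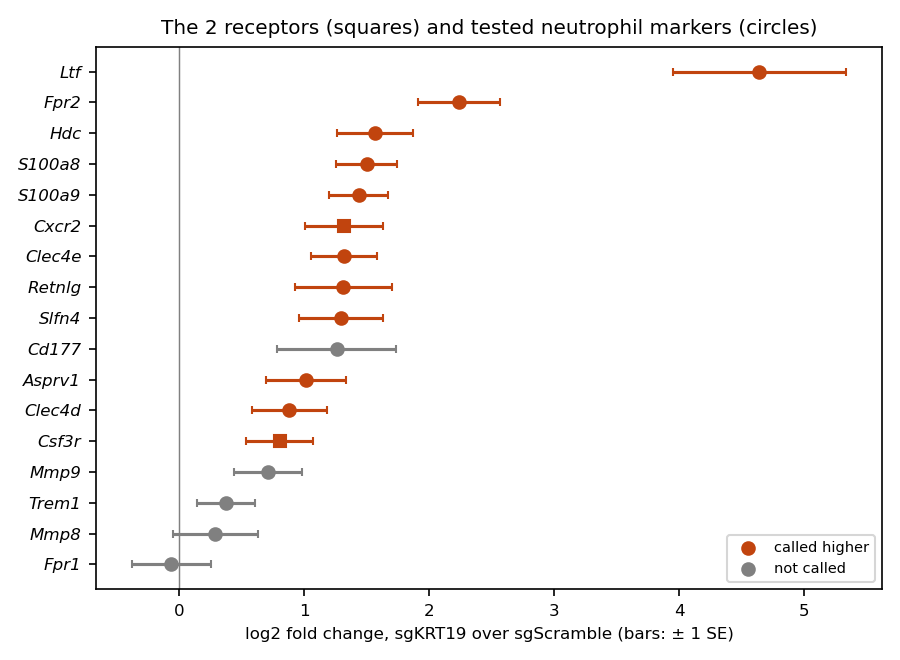
Log2 fold change, sgKRT19 over sgScramble (x axis, limma estimate with a bar of ± 1 SE), of *Cxcr2* and *Csf3r* (squares) and of the 15 tested neutrophil markers (circles), ordered by size, with red for called higher and grey for not called. *Cxcr2*, at 1.32, lies among the markers that were called, and *Csf3r*, at 0.81, lies below all 10 of them.

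Within each library, the mean log2(value + 1) of the 15 tested neutrophil markers, *Retnlg* among them, was subtracted from that of each receptor. For *Cxcr2* the result was -0.85, -0.60, -0.25 and -0.094 in sgScramble tumors and -1.11, 0.046 and -0.28 in sgKRT19 tumors, and the groups were intermixed. The group means of -0.45 ± 0.34 (SD, n = 4) and -0.45 ± 0.59 (SD, n = 3) differed by 0.0025 (2-sided exact permutation test, p = 1). For *Csf3r* it was 1.06, 2.17, 1.90 and 2.45 against 0.75, 1.52 and 1.88, and the means of 1.89 ± 0.60 (SD, n = 4) and 1.38 ± 0.58 (SD, n = 3) differed by -0.51 (2-sided exact permutation test, p = 0.286, adjusted over the 2 receptors p = 0.571). An exact permutation test of 4 against 3 libraries cannot go below p = 0.0571, so a difference of the receptors from the markers could not have passed the threshold of 0.05.

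**Figure D5:**
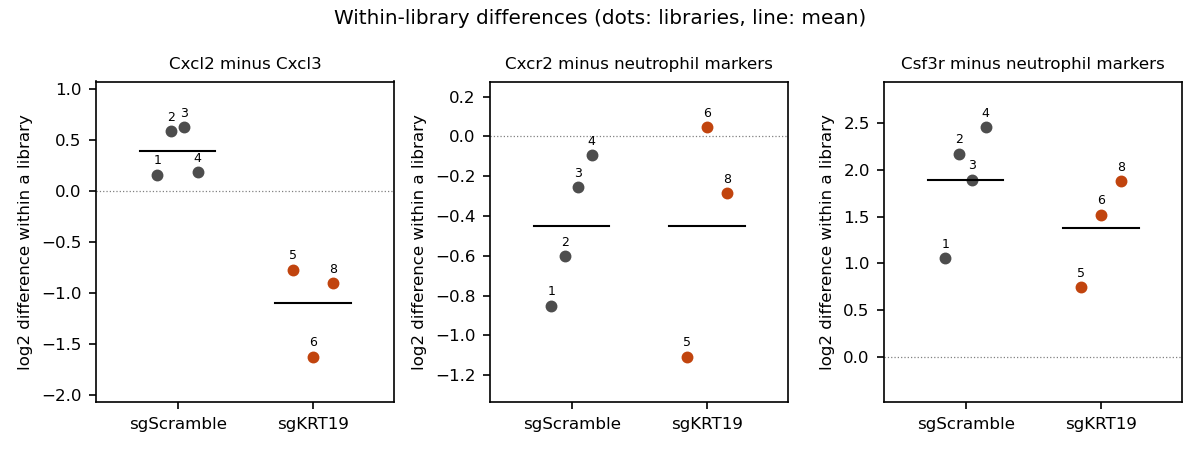
Differences of log2(value + 1) within a library (y axis, a separate scale in each panel) for *Cxcl2* minus *Cxcl3* and for *Cxcr2* and *Csf3r* minus the mean of 15 neutrophil markers, by group (x axis). Dots are libraries with their replicate number, lines are group means and the dotted line is 0. *Cxcl2* minus *Cxcl3* is above 0 in all sgScramble and below 0 in all sgKRT19 libraries, while both receptor panels overlap.

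Markers of other cells that make or receive these signals moved with the groups as well. All 6 leukocyte markers rose, among them *Cd52* (log2 fold change 1.42), *Ptprc* (1.19) and *Coro1a* (1.14), with summed values of 8540 to 11721 in sgScramble and 15194 to 20421 in sgKRT19 tumors. Of 10 macrophage and monocyte markers, 5 rose, led by *Ly6c2* (2.03), *Cd14* (0.62) and *C1qb* (0.57), and *Mrc1* fell by 0.50, with sums of 21156 to 26650 and 29690 to 37289. Of 8 epithelial markers 4 rose, led by *Krt18* (0.97), *Muc1* (0.91) and *Krt8* (0.91), with sums of 126941 to 175183 and 262733 to 267578. The largest values in these sums were those of *Krt8* and *Krt18*. The other 4 were not called: *Cldn4* (-1.23), *Krt7* (-1.03), *Epcam* (0.064) and *Cldn7* (0.47). Of 7 endothelial markers 4 rose, led by *Emcn* (0.82), *Kdr* (0.73) and *Tie1* (0.62). Library size alone left 2 macrophage and monocyte and 2 endothelial markers called, without *Cd14* (0.41), *C1qb* (0.36) and *Tie1* (0.41). Without sgKRT19 replicate 5 the 2 lists had 2 calls each, and without sgScramble replicate 2 they had 3 and 2. *Cd14* (0.42), *Mrc1* (-0.51) and *Tie1* (0.64) were not called without sgKRT19 replicate 5. Without sgKRT19 replicate 8 the endothelial list also had 2 calls. All 8 muscle markers rose, led by *Myh1* (8.96), *Myh4* (8.23) and *Actn2* (8.13), although *Myh4* was not called by DESeq2 (5.03, adjusted p = 0.111). *Myh1*, *Myh4*, *Actn2*, *Ckm*, *Tnnt3* and *Pvalb* passed the filter only through the edited tumors, being under 10 in every control but replicate 3. Their calls are read no further. None of the 9 fibroblast, 5 mast cell, 3 platelet or 2 skin markers tested was called by limma or edgeR, and 0, 2, 1 and 0 of them had an unadjusted p under 0.05 in limma. DESeq2 called 1 fibroblast marker lower, as did limma without sgScramble replicate 1, and library size as the only scaling gave 1 platelet marker lower. All 5 mast cell markers were called higher without sgScramble replicate 3 and 1 with a pseudocount of 5. The skin keratin and desmosome genes *Krt1* and *Dsg1a* were at or under 3 reads in every library. The part of these cells in the higher *Cxcl3*, *Cxcl5*, *Cxcr2* and *Csf3r* was not tested.

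Genes whose log2 values followed those of each member most closely over the 7 libraries were taken from 12626 genes with a mean of at least 100, as a description. *Cxcr2* was followed by *Fli1* (Pearson r = 0.99), *Ptpn6* (0.98) and *Eif2s3y* (0.98), and *Csf3r* by *Ccdc141* (0.98), *Calcrl* (0.98) and *Gzmg* (0.97). *Cxcl5* was followed by *Ppp1r11* and *Inip* (0.99 each) and *Cxcl3* by *Ubl4a* (0.98), *Nudt5* (0.98) and *Inip* (0.97). *Inip* was thus near both of the ligands that rose. *Cxcl2* was followed by *Trmt10c* (0.97), *Rita1* (0.96) and *Tax1bp3* (0.95) and *Cxcl1* by *Pex11a* (0.99), *Slc7a6os* (0.95) and *Rnf146* (0.94). The points of every r are the same 7 libraries of 2 groups.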

How the data were processed

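RNA from 7 tumors was sequenced. The labels name polyA RNA, whereas the methods of the study name a stranded total RNA kit. The authors deposited 1 table of a signal, reads per gene divided by a size factor for each library, on the build mm10 per the labels. The aligner, counter and annotation are not given in the sources used here. Whole reads were recovered for 100% of values in every library (tolerance 0.1 read). Genes that reached 10 in 3 or more libraries entered limma 3.58.1 (R 4.3.3) as log2(value + 1), by lmFit and trended eBayes, and p-values were adjusted over all genes tested (threshold 0.05). edgeR 4.0.16 and DESeq2 1.42.0 on the recovered reads, other scalings, pseudocounts, filters and leaving out each library were alternatives. Scripts were tested on simulated data. Positions come from GENCODE M21, which holds 37095 of the 38026 identifiers in the same version, and promoters from RefSeq (5 of 7 genes matched). Duplicate rows of *Trem1* were counted once. Likeness of pattern was measured by Pearson's r of log2(value + 1). From each gene list the called genes with the largest changes, up to 3 each way, and genes at the floor in every library were named, and also *Il1a*, *Il6*, *Stat3*, *Socs3*, *S100a8*, *S100a9*, *Ppbp*, *Pf4* and *Ackr1* where roles called for it. The genes, lists and tests were chosen with earlier results of these data known. Some genes that the rule names are not reported here.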

Additional observations from a re-analysis of the deposited data

Results flagged for a closer look

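Each of the 62 values given for the 4 sgScramble tumors (the 7 genes, the within-library differences, the listed genes named and the list sums) was searched for 1 tumor far from the others, by Dixon's criterion at its 95% level. Chance alone gives about 1 in 20, and 7 were found. *Cxcl3* was one of them, at 213 in sgScramble replicate 1, as was *Il1r2*, at 182 in the same tumor. *Il1rap* was at 275 in sgScramble replicate 4. The other 4 are skeletal muscle values of sgScramble replicate 3: *Myh1* at 222, *Myh4* at 199, *Actn2* at 58.5 and the summed markers at 2045. Without that tumor *Cxcl3*, *Cxcl5* and *Cxcr2* had log2 fold changes of 1.20, 0.90 and 1.41 and stayed called (limma, adjusted p = 0.0300, 0.0140 and 0.0119), and *Csf3r*, at 0.83, had an adjusted p of 0.0550.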

How the results depend on the processing

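*Cxcl5* and *Cxcr2* kept their direction and call in every alternative run. Of the 7 genes, 4 were called, all higher, in every alternative with all libraries except library size as the only scaling, which called 3 and lost *Csf3r* (0.59, adjusted p = 0.147). Leaving out 1 library at a time gave 2 to 4 calls, with 2 without sgKRT19 replicate 8. The log2 fold change then ranged from 0.55 to 1.07 for *Csf3r*, 1.08 to 1.58 for *Cxcl3* (not called at 1.11), -0.47 to 0.023 for *Cxcl2* and 0.39 to 1.33 for *Cxcl1*. *Cxcl1* was not tested without sgScramble replicate 1 or sgKRT19 replicate 5 or 8, nor with a minimum of 50. The cause of these losses was not tested. *Cxcr2* minus the neutrophil markers was -0.00030 with a pseudocount of 0.5, -0.28 with markers of a mean of at least 50, 0.24 without *Ltf* (added after seeing the data) and -0.24 to 0.33 without 1 library. *Csf3r* minus the markers was -0.79 with markers of a mean of at least 50, -0.28 without *Ltf* and -0.79 to -0.20 without 1 library. *Cxcl2* minus *Cxcl3* was -1.65 to -1.22 without 1 library. Scaling by library size alone shifted the median log2 fold change of all genes to -0.21 and the calls from 3820 higher and 3420 lower to 2187 and 5705. edgeR called 7188 genes and DESeq2 7971. Over all genes tested, 17.9% were called higher and 16.0% lower. Of the listed genes 55 were called higher and 8 lower, and with library size alone 34 and 16. The 55 include all 8 muscle and all 6 leukocyte markers. Most of the muscle markers, and the neutrophil marker *Retnlg*, passed the filter only through the edited tumors. Among genes not called, the sign turned for *Socs3* with library size alone (-0.10), and without 1 library the log2 fold change was -0.022 at its lowest for *Socs3*, -0.37 to 0.17 for *Ppbp*, -0.049 to 1.50 for *Ackr1*, -0.12 to 0.77 for *Il6* and -0.11 to 0.51 for *Pf4*. Counts of *Cxcl1* and *Csf3* were low in most libraries, and the share of depth and of spread between tumors in their errors was not tested. No paired analysis was run. The paper's heat map caption calls the control and edited cells paired, but the labels record no pairs and the groups share no replicate number.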
